A study of Catharanthus roseus with 15 samples.

Results

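In leaves of Catharanthus roseus, 119 of the 33829 genes in the count table were higher at both 3 h and 24 h after ethephon (ETH) than at 0 h, while their difference from 0 h at 3 h after methyl jasmonate (MJ) was limited as given below. They are called ethephon-sustained genes here. Levels are given in CPM (a gene's count scaled to the library total), and L is the log2 ratio of a group's mean CPM to the 0 h mean, each with 0.5 CPM added. A member had a mean of at least 5 CPM in some group, an L of at least 1 at ETH 3 h and at ETH 24 h, an L between -0.585 and 1 at MJ 3 h, and all 6 ETH libraries above the highest 0 h library. Because of the added 0.5 CPM, the means of a member near 0 CPM could differ by more than 2-fold at MJ 3 h. CRO_003531, for one, had means of 0.434 CPM at MJ 3 h and 0.0791 CPM at 0 h. The conditions on members held for 123 genes, and 4 of them (CrEBF2, CrMKK9, CrEIN4 and CrbHLH130) were set aside by name before the members were counted. The selection used the ETH 3 h, ETH 24 h and MJ 3 h values against 0 h, so those values describe the members and test nothing.

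The samples were leaf RNA of seedlings of the cultivar Vitae Rose Red, with 3 libraries in each of 5 groups: untreated plants at 0 h, and plants sprayed with 100 µM ETH or 100 µM MJ and sampled 3 h or 24 h later (named ETH 3 h and ETH 24 h, and likewise for MJ). The labels give the seedlings an age of 2 weeks and the methods of the study give 4 weeks. The number of plants in a library is not stated, so p-values measure the spread between these libraries. Libraries of water-sprayed plants at 3 h or 24 h were not analysed here, so hormone, spraying, handling and time of day cannot be told apart in a comparison with 0 h. In whole leaves, fewer cells of a type and less RNA per cell cannot be told apart either.

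Ethephon breaks down to ethylene inside plant tissue, and methyl jasmonate is a volatile ester of the defence hormone jasmonate. As background from Arabidopsis, ethylene binds receptors in the endoplasmic reticulum and thereby turns off the kinase CTR1, which lets EIN2 signal to the nucleus and EIN3-type transcription factors accumulate. EIN3 then turns on genes for ERF transcription factors and for EBF proteins, which lead to the breakdown of EIN3.

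Library totals lay between 23710688 and 31168281 counts. 3 genes for chloroplast proteins were fixed as leaf markers. PSAF (a photosystem I subunit) lay between 1067 and 5124 CPM in the 15 libraries. The gene matched to ATCG00490 lay between 8.21 and 25.2 CPM, and the gene matched to ATCG00680 was at 0 in all of them. At 0 h the means were 3770 CPM for PSAF and 17.5 CPM for ATCG00490, so the sum of the 3 is nearly PSAF alone. The summed level of the leaf markers was 2893 to 5145 CPM at 0 h, 1852 to 2914 CPM at ETH 3 h, 2184 to 2865 CPM at ETH 24 h, 1081 to 2456 CPM at MJ 3 h and 2362 to 4602 CPM at MJ 24 h, so that all ETH 24 h and MJ 3 h libraries lay below those of 0 h. Its part in the results was not tested. The summed level of 7 markers of young or dividing tissue was 14.1 to 22.2 CPM in the 0 h, ETH 24 h and MJ 24 h libraries, and reached 74.0 CPM in replicate 1 of ETH 3 h and 115.0 CPM in replicate 1 of MJ 3 h. The 2 epidermal markers summed to between 39.9 and 235 CPM. All 119 members passed the filter on low counts, which kept 18008 genes. A member can pass that filter through its ETH libraries alone.

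Across the members the median L was 1.71 at ETH 3 h, 1.54 at ETH 24 h, 0.36 at MJ 3 h and 0.43 at MJ 24 h. Over all tested genes the same medians were 0.14, 0.05, 0.05 and -0.06. The median level of the members was 14.5 CPM at 0 h, 54.9 CPM at ETH 3 h, 45.1 CPM at ETH 24 h, 17.8 CPM at MJ 3 h and 19.1 CPM at MJ 24 h. Calls were made with edgeR, and required both an adjusted p under 0.05 and a difference of more than 1.5-fold. At ETH 3 h against 0 h, 97 members were called higher (4.76% of all tested genes) and 0 lower (7.14% of all tested genes). At ETH 24 h against 0 h, 65 were called higher (1.33% of all tested genes) and 0 lower (0.855% of all tested genes). At MJ 3 h against 0 h, 13 were called higher (9.55% of all tested genes) and 0 lower (11.3% of all tested genes). At an unadjusted p under 0.05, 27 were higher and 2 lower, beside 3875 and 3389 of all 18008 tested genes. The selection set the direction and least size of the ETH differences and bounded those at MJ 3 h, so nothing is read from these counts. It set no adjusted p. Of the members 81.5% were called higher at ETH 3 h and 54.6% at ETH 24 h, and the rest were not called.

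**Figure D1:**
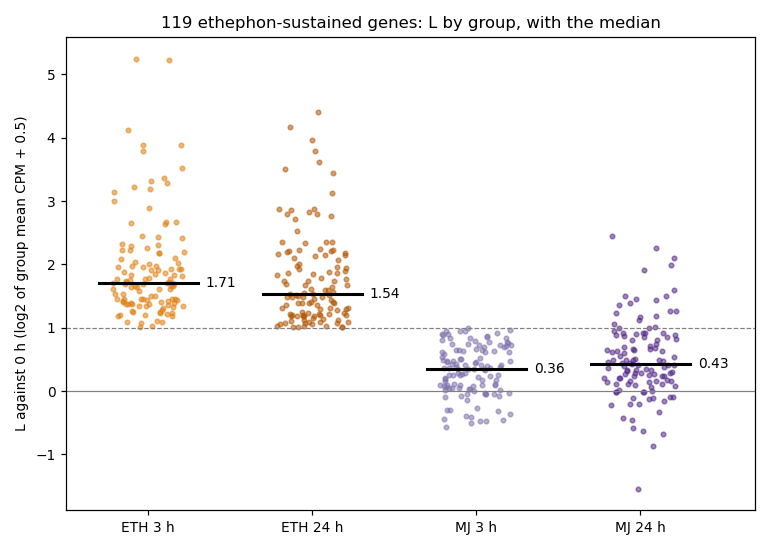
L (log2 ratio to the 0 h mean, with 0.5 CPM added) of each of the 119 ethephon-sustained genes in the 4 treated groups, 1 point a gene, with the median as a line. The dashed line is the lower limit of 1 that the selection set under ETH and the upper limit at MJ 3 h. Only the MJ 24 h points were free to lie anywhere, and they run from -1.54 to 2.44 with a median of 0.43.

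The edges of the selection were crowded. Just inside it, CRO_016331 had an L of 1.01 at ETH 24 h and CRO_028313 an L of 1.01 at ETH 3 h. Just outside, CRO_003949 had an L of 0.999 at ETH 3 h and CRO_027861 an L of 0.999 at ETH 24 h. On the jasmonate side, CRO_009691 (0.99) and CRO_014529 (0.97) were inside at MJ 3 h, while CRO_011804 and CRO_031796 (1.01 each) were outside.

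A name or description was found for 9 of the 119 members, in tables of the study that match genes to Arabidopsis. The names are therefore borrowed from another species, and the other 110 members are known here by their identifier only. Counts were not corrected for gene length, so levels are compared within a gene and not between genes.

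Among the 9 members with a name, CrERF15 (CRO_019273) was the one labelled as an ERF, a family of transcription factors that carry the ethylene signal to its target genes. Its Arabidopsis description is ethylene response factor 1. Its 0 h libraries held 1.37, 8.34 and 0.598 CPM, its ETH 3 h libraries 39.2, 40.8 and 22.7 CPM, and its ETH 24 h libraries 12.6, 18.3 and 20.4 CPM. Under MJ the values were 2.33, 6.72 and 4.50 CPM at 3 h and 0.447, 0.956 and 1.16 CPM at 24 h. The 2 MJ groups did not overlap, and each MJ 24 h library lay below the lowest MJ 3 h library, while the highest ETH 24 h library lay below the lowest ETH 3 h library. CrERF15 fell from MJ 3 h to MJ 24 h, with a log2 difference of -2.38 (SE 0.766, adjusted p = 0.0433, edgeR). That call was lost when any library of MJ 24 h, or replicate 2 or 3 of MJ 3 h, was left out. It was also lost with limma voom and with only the compared groups in the fit, and was kept in 9 of 16 alternatives. Its adjusted p ran from 0.0054 to 0.132 over the alternatives. From ETH 3 h to ETH 24 h the difference was -0.96 (SE 0.69, adjusted p = 0.439, edgeR), which was within the spread that edgeR estimated. With limma voom this fall was called (-0.86, adjusted p = 0.0468).

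RAV1 (CRO_031165), matched to a factor with an AP2 and a B3 DNA-binding domain in Arabidopsis, stood at 180, 209 and 93.1 CPM at 0 h, at 748, 754 and 705 CPM at ETH 3 h and at 531, 525 and 509 CPM at ETH 24 h. Its MJ libraries held 157, 287 and 216 CPM at 3 h and 274, 332 and 494 CPM at 24 h. All 3 MJ 24 h libraries were above the highest 0 h library, and the MJ 24 h and MJ 3 h libraries overlapped. The difference MJ 24 h against 0 h was 1.27 (SE 0.289, adjusted p = 0.184, edgeR), and against MJ 3 h it was 0.77 (SE 0.286, adjusted p = 0.0725). Neither was called by edgeR with all libraries. DESeq2 called both, limma voom called the first, and edgeR without replicate 2 of MJ 3 h called the second.

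3 named members were of the bHLH and WRKY families, which bind DNA at E-box and W-box elements. CrWRKY4 (CRO_010846) held 53.5, 60.8 and 32.0 CPM at 0 h, then 141, 184 and 149 CPM at ETH 3 h, 92.8, 125 and 103 CPM at ETH 24 h, 61.7, 113 and 99.4 CPM at MJ 3 h, and 53.2, 61.7 and 107 CPM at MJ 24 h. Its ETH 24 h libraries lay below its ETH 3 h libraries with no overlap, and MJ 24 h overlapped with both 0 h and MJ 3 h. With an L of 0.90 it was the named member closest to the jasmonate limit of the selection. At MJ 3 h against 0 h, which the selection bounded, it was called higher (0.95, SE 0.302, adjusted p = 0.034, edgeR). Its difference of 1.08 at ETH 24 h against 0 h was not called (SE 0.303, adjusted p = 0.0879, edgeR). CrbHLH128 (CRO_000849) held 40.8, 43.9 and 21.4 CPM at 0 h, then 111, 119 and 109 CPM at ETH 3 h, 86.0, 106 and 107 CPM at ETH 24 h, 35.2, 50.7 and 27.2 CPM at MJ 3 h, and 38.5, 41.9 and 66.0 CPM at MJ 24 h. Its ETH groups kept clear of every other library, and its 0 h and MJ libraries overlapped throughout. The tables of the study place it on cro_scaffold_3067480, at 19486 to 28143 on the plus strand, with no build named.

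The member labelled only bHLH (CRO_015412) had libraries of 88.1, 121 and 95.3 CPM at 0 h, then 263, 270 and 261 CPM at ETH 3 h, and 203, 269 and 223 CPM at ETH 24 h. After MJ they held 115, 117 and 120 CPM at 3 h and 161, 167 and 207 CPM at 24 h. The MJ 24 h libraries thus lay above all MJ 3 h and 0 h libraries, and the highest MJ 24 h library reached into the ETH 24 h range. This gene rose from MJ 3 h to MJ 24 h by 0.66 on the log2 scale (SE 0.138, adjusted p = 0.0062, edgeR), a call kept in 14 of 16 alternatives and lost with limma voom and with only the compared groups in the fit. Its difference at MJ 24 h against 0 h was 0.87 (SE 0.139, adjusted p = 0.0749), which DESeq2, limma voom, and edgeR without replicate 1 of both 3 h groups called, and that from ETH 3 h to ETH 24 h was -0.16 (SE 0.138, adjusted p = 0.527).

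The next identifier in the table, CRO_015411, was also a member, and its log2 CPM followed that of CRO_015412 across the 15 libraries with a Pearson r of 0.995. It rose from 86.5, 88.0 and 92.9 CPM at MJ 3 h to 129, 141 and 176 CPM at MJ 24 h (a log2 difference of 0.79 with SE 0.161 and adjusted p = 0.0055, edgeR), and that call held in 16 of 16 alternatives. CRO_031164 and RAV1 (CRO_031165) were the other consecutive members, with an r of 0.840. No position was found for these 4 genes. Of the 1020 consecutive identifier pairs with positions, 52.9% shared a scaffold. No source states the strand setting of the read counting, and reads of overlapping or antisense neighbours therefore cannot be told apart.

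4 named members were not transcription factors. AT4G20820 (CRO_000174, cro_scaffold_2959637, 9216 to 10856, minus strand) encodes a protein of the FAD-binding berberine family, a family of flavin-dependent oxidases, and its match in rice is similar to a nectarin. Its levels were 116, 156 and 53.0 CPM at 0 h, then 1896, 1554 and 1396 CPM at ETH 3 h, 1424, 1276 and 1306 CPM at ETH 24 h, 87.2, 334 and 81.1 CPM at MJ 3 h, and 183, 168 and 386 CPM at MJ 24 h. Every ETH library lay above every other library, and L was 3.89 at 3 h and 3.62 at 24 h. Its MJ groups each held 1 library (replicate 2 at 3 h, replicate 3 at 24 h) far above the other 2.

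AT1G78830 (CRO_000546, cro_scaffold_3062505, 7145 to 12758, plus strand), a lectin-like protein with a mannose-binding domain, had libraries of 1332, 1510 and 1210 CPM at 0 h, then 5269, 3815 and 6395 CPM at ETH 3 h and 5066, 2854 and 3719 CPM at ETH 24 h. Under MJ they held 957, 1671 and 461 CPM at 3 h and 1730, 1321 and 2249 CPM at 24 h. The ETH 3 h and ETH 24 h libraries overlapped, and so did the 0 h and MJ libraries. Its difference of 1.46 at ETH 24 h against 0 h was not called (SE 0.413, adjusted p = 0.0902, edgeR).

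AT1G66430 (CRO_000061, cro_scaffold_2961789, 10173 to 13230, minus strand) encodes a pfkB-like carbohydrate kinase whose rice match is a fructokinase, the enzyme that phosphorylates fructose. It held 54.0, 52.6 and 55.1 CPM at 0 h, then 216, 167 and 176 CPM at ETH 3 h, 135, 136 and 154 CPM at ETH 24 h, 88.9, 102 and 84.3 CPM at MJ 3 h, and 50.9, 62.3 and 66.2 CPM at MJ 24 h. The MJ 3 h libraries stood between the 0 h and the ETH libraries, and the MJ 24 h libraries overlapped with those of 0 h. At MJ 3 h against 0 h, which the selection bounded, it was called higher (0.76, SE 0.132, adjusted p = 0.0016, edgeR). From MJ 3 h to MJ 24 h the difference was -0.56 (SE 0.132, adjusted p = 0.0108, edgeR), just under the required fold, so it was not called. This fall was called in 5 of 16 alternatives. They were library totals only, and edgeR without replicate 1 of MJ 3 h, replicate 2 or 3 of MJ 24 h, or replicate 1 of both 3 h groups.

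AT4G16490 (CRO_000339, cro_scaffold_3032542, 22369 to 25012, minus strand), a protein with armadillo repeats, held 89.3, 91.2 and 91.6 CPM at 0 h, then 282, 234 and 220 CPM at ETH 3 h, 210, 216 and 239 CPM at ETH 24 h, 115, 103 and 133 CPM at MJ 3 h, and 134, 135 and 157 CPM at MJ 24 h. The 0 h libraries lay below all others, and the MJ 24 h libraries lay above all MJ 3 h libraries. The difference at MJ 24 h against 0 h was 0.70 (SE 0.124, adjusted p = 0.0749, edgeR). It was called by DESeq2, by limma voom, and by edgeR without replicate 1 of both 3 h groups.

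**Figure D2:**
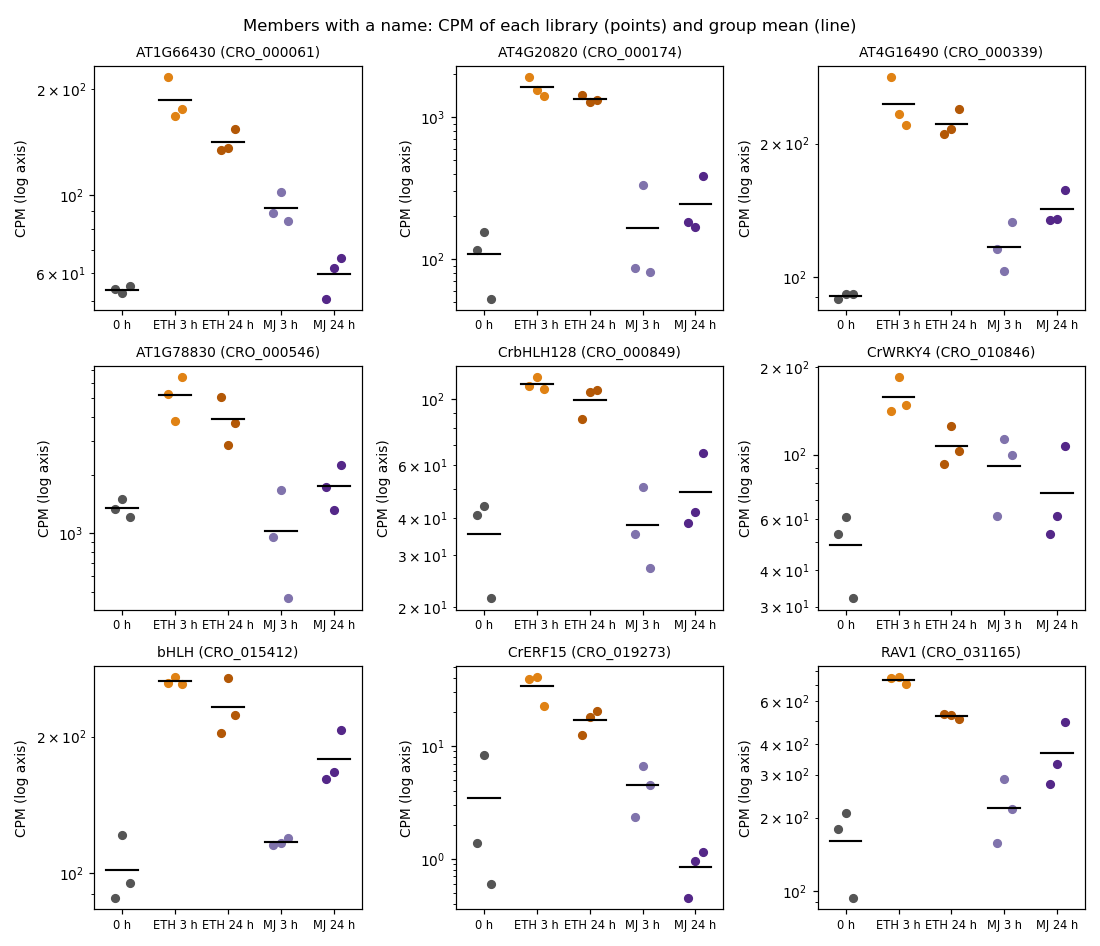
CPM on a log axis of the 9 members with a name, 1 panel a gene, 3 libraries a group as points (replicates 1 to 3 from left to right) and the group mean as a line. The 6 ETH libraries lie above all 0 h libraries in every panel, as the selection required. For CrERF15 the MJ 24 h libraries (0.447 to 1.16 CPM) have the lowest mean of its 5 groups.

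As a description of the values that the selection used, the CPM difference from 0 h at 24 h was a median 82.3% of that at 3 h (middle 50% of members 60.6% to 116%). It was as large or larger at 24 h in 41 members and under 50% in 18. CrERF15 (44.4%) and CrWRKY4 (53.3%) kept the smallest share among the named members, and AT4G16490 (84.8%) and CrbHLH128 (83.4%) the largest. The selection bounds how far a member can be down at 24 h, since an L of at least 1 was required at both times.

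Both ETH groups were used in the selection, so the calls between them, here and for the genes below, are those of selected values. In the edgeR fit of ETH 24 h against ETH 3 h, 2 members were called higher (1.78% of all tested genes). In the same fit 3 were called lower (1.84% of all tested genes). At an unadjusted p under 0.05, 6 were higher and 14 lower, beside 1900 and 2225 of all 18008 tested genes. The median difference was -0.14 over the members and -0.03 over all tested genes. The 9 named members were not among these edgeR calls. With limma voom 8 rose and 12 fell, beside 1036 and 1182 of all tested genes. CrWRKY4 (adjusted p = 0.0419) and CrERF15 (adjusted p = 0.0468) were among those that fell with limma voom. With 1 library left out, 0 rose without replicate 2 of ETH 3 h or replicate 3 of ETH 24 h and 1 rose without any other, while 0 fell without replicate 2 of ETH 3 h or any ETH 24 h library, 1 without replicate 1 of ETH 3 h and 2 without its replicate 3. Over all tested genes, 15 to 260 rose and 5 to 319 fell in the fits with 1 library left out. All 3 ETH 24 h libraries were above those of ETH 3 h in 10 members (13.2% of all tested genes). They lay below them in 21 (18.7% of all tested genes).

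CRO_026893 rose most among the called members. It held 52.2, 29.0 and 34.1 CPM at ETH 3 h and 131, 114 and 146 CPM at ETH 24 h, with no overlap, against 12.4 to 17.4 CPM at 0 h and 8.81 to 16.1 CPM in the 6 MJ libraries. The rise was 1.81 on the log2 scale (SE 0.257, adjusted p = 0.0091, edgeR), and it was no longer called without replicate 2 of ETH 3 h or without replicate 3 of ETH 24 h (highest adjusted p 0.0533). CRO_028213 rose from 221, 278 and 171 CPM to 431, 373 and 501 CPM (a log2 difference of 0.99 with SE 0.26 and adjusted p = 0.0473), and leaving out any of these 6 libraries lost the call. It was also lost with library totals only, with no filter on low counts and with only the compared groups, and was kept in 7 of 16 alternatives.

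CRO_029584 fell from 7.12, 9.36 and 5.64 CPM to 1.47, 1.49 and 1.73 CPM between ETH 3 h and ETH 24 h (a log2 difference of -2.20 with SE 0.556 and adjusted p = 0.0427, edgeR), and its highest library outside ETH held 0.240 CPM. CRO_011550 fell from 130, 89.5 and 66.3 CPM to 36.9, 33.4 and 34.6 CPM (a log2 difference of -1.39 with SE 0.317 and adjusted p = 0.0314). CRO_009836, named after its values were seen since it completes the 3 falls, went from 201, 180 and 122 CPM to 76.0, 84.9 and 98.9 CPM (a log2 difference of -0.91 with SE 0.146 and adjusted p = 0.0122). In all 3 genes the groups did not overlap. The call for CRO_029584 was lost without any 1 of the 6 libraries, that for CRO_011550 without any but replicate 3 of ETH 3 h, and that for CRO_009836 without replicate 2 of ETH 3 h or any library of ETH 24 h. Further losses were CRO_029584 with no filter on low counts or with a replicate block, CRO_011550 without replicate 1 of both 3 h groups, and CRO_009836 with only the compared groups. The calls were kept in 7 of 15, 10 of 16 and 11 of 16 alternatives in that order.

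The members with no name that stood at the extremes of the selection behaved differently from each other. CRO_004402 and CRO_017210 had the highest means of these over the 6 ETH libraries. CRO_004402 held 458 to 501 CPM at 0 h, then 1543, 1329 and 2037 CPM at ETH 3 h, 2186, 2462 and 2111 CPM at ETH 24 h, 523, 1016 and 310 CPM at MJ 3 h, and 687, 1305 and 1702 CPM at MJ 24 h. Its MJ 24 h libraries all exceeded its 0 h libraries and overlapped with MJ 3 h. CRO_017210 went from 131 to 403 CPM at 0 h to 553, 823 and 946 CPM at ETH 3 h and 573, 685 and 550 CPM at ETH 24 h, and its replicate 3 of MJ 24 h (749 CPM) lay within the range of the ETH libraries.

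CRO_003531 and CRO_010160 had the largest L at ETH 24 h, 4.41 and 4.17, from 0 h levels of at most 0.121 and 0.344 CPM. CRO_003531 held 14.9, 28.0 and 21.6 CPM at ETH 3 h and 15.1, 10.9 and 9.32 CPM at ETH 24 h, and 0.759 CPM in its highest MJ library. At MJ 3 h against 0 h, which the selection bounded through L, it was called higher at these low levels (2.39, SE 0.818, adjusted p = 0.0464, edgeR). CRO_010160 held 14.1, 4.22 and 1.14 CPM at ETH 3 h and 12.5, 10.4 and 16.9 CPM at ETH 24 h, so its ETH 3 h libraries spread over a wider range than its ETH 24 h libraries. CRO_013307 had the most uneven ETH 3 h group, with 60.1, 2.21 and 0.203 CPM, beside an L of 5.24 at that time.

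From MJ 3 h to MJ 24 h, a comparison in which only MJ 3 h was bounded by the selection, 9 members rose (9.0% of all tested genes were called higher, against 7.56% of the members) and 5 fell (7.39% of all tested genes were called lower, against 4.20% of the members). These shares are near the background. The median difference was 0.23 over the members and -0.03 over all tested genes. At an unadjusted p under 0.05, 30 members were higher and 12 lower, beside 3177 and 3476 of all 18008 tested genes. The MJ libraries of the members were uneven. Replicate 2 was the highest of the MJ 3 h libraries in 68 of 119 members (29.8% of all tested genes), and replicate 3 was the highest of the MJ 24 h libraries in 86 (50.3% of all tested genes). Without replicate 2 of MJ 3 h, 29 members were called higher (1772 of all tested genes), with a median difference of 0.48. Without replicate 3 of MJ 24 h only 5 were (1613 of all tested genes), with a median of 0.05. Without replicate 1 of MJ 3 h 8 were called lower (1366 of all tested genes). Without replicate 3 of MJ 3 h 3 were (1067 of all tested genes). Without replicate 1 or replicate 3 of MJ 24 h 2 were (1001 and 1151 of all tested genes).

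Besides CRO_015411 and CRO_015412, CRO_024749 was among the 9 that rose and was called in 16 of 16 alternatives. It was named after its values were seen. It stood at 67.3, 79.1 and 80.2 CPM at 0 h, at 45.3, 65.1 and 53.1 CPM at MJ 3 h and at 140, 133 and 140 CPM at MJ 24 h (a log2 difference of 1.39 with SE 0.182 and adjusted p = 0.00046, edgeR). In ETH it held 183, 203 and 192 CPM at 3 h and 287, 271 and 341 CPM at 24 h. The MJ 24 h libraries were above all 0 h and MJ 3 h libraries and below all ETH libraries.

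The change from 3 h to 24 h after ETH minus that after MJ was added as a contrast after the data had been seen. ETH 3 h, ETH 24 h and MJ 3 h, which enter it, were also used in the selection, so its calls are those of selected values, and the shares of members called (0.84% positive and 2.52% negative) are near the background. It was called positive for 1 member (1.79% of all tested genes) and negative for 3 (1.52% of all tested genes). At an unadjusted p under 0.05, 7 were positive and 19 negative, beside 1457 and 1587 of all 18008 tested genes. The median was -0.38 over the members and 0.01 over all tested genes. The positive call (CRO_026893) was lost without any 1 library other than replicate 1 of ETH 3 h. Without that library 3 members were positive (500 of all tested genes). The negative calls numbered 7 without replicate 1 of ETH 3 h (577 of all tested genes). They numbered 6 without replicate 2 of MJ 3 h (412 of all tested genes). Without replicate 2 or 3 of ETH 3 h they numbered 1 (120 and 146 of all tested genes). The same held without replicate 1 or 3 of ETH 24 h (110 and 108) or of MJ 24 h (132 and 216). CRO_009836 was the clearest of the 4. Its MJ libraries held 34.0, 24.6 and 29.9 CPM at 3 h and 50.9, 52.5 and 61.3 CPM at 24 h, so it rose under MJ (a log2 difference of 0.97 with SE 0.147 and adjusted p = 0.0011, edgeR) while it fell under ETH. The difference between the changes was -1.88 (SE 0.208, adjusted p = 0.00098) and was called in all 22 alternatives. Its 0 h libraries held 37.8 to 44.7 CPM.

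**Figure D3:**
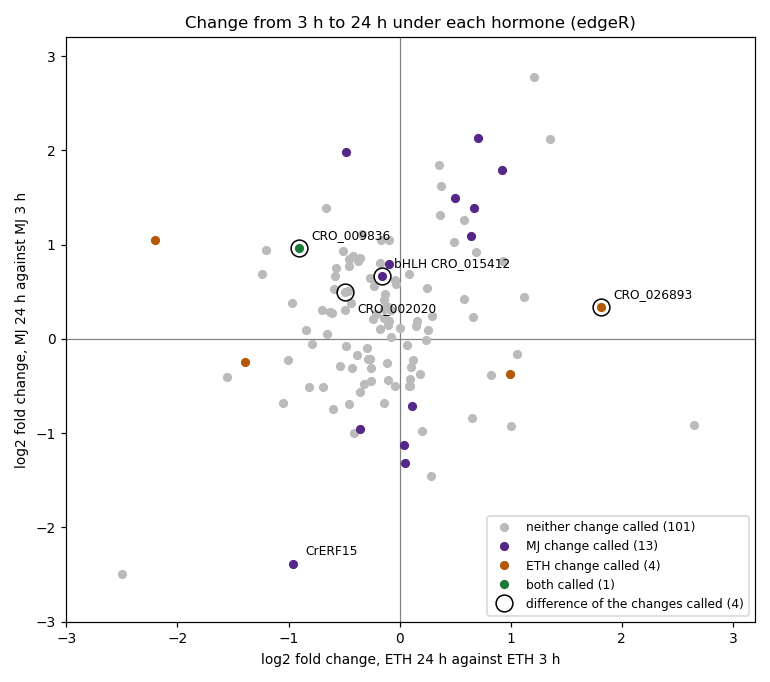
Change from 3 h to 24 h (log2 fold change, edgeR) of the 119 members after ETH on the horizontal axis and after MJ on the vertical axis, 1 point a gene, coloured by which change was called and circled where the difference between the changes was called. Most points (101) have neither change called. CRO_009836 is the point called in both, at -0.91 after ETH and 0.97 after MJ, and CRO_026893, also circled, lies at 1.81 after ETH.

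MJ 24 h was the group that the selection did not bound, though the comparison with 0 h uses the 0 h libraries that it required to be low. In edgeR 0 members were called higher (0.0167% of all tested genes, 3 genes in all) and 0 lower (0.0111% of all tested genes, 2 genes in all). At an unadjusted p under 0.05, 46 members were higher and 1 was lower, with 1077 and 1099 of all tested genes. DESeq2 called 14 members higher (120 of all tested genes) and limma voom 20 (475 of all tested genes). The edgeR fit without replicate 1 of both 3 h groups called 5 (55 of all tested genes). None of these called a member lower (127, 437 and 36 of all tested genes). The median difference was 0.54 over the members and 0.00 over all tested genes. It was between 0.42 and 0.66 when 1 library of 0 h or MJ 24 h was left out, with the lowest value without replicate 3 of MJ 24 h.

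All 3 MJ 24 h libraries exceeded all 0 h libraries in 33 members, or 27.7% (5.04% of all tested genes), and lay below them in 3, or 2.52% (16.4% of all tested genes). An L of at least 1 at MJ 24 h was reached by 20 members (1.3% of all tested genes), and 21 had an L below 0 (58.2% of all tested genes). For a view of genes with a like requirement on 0 h, 98 genes that were high at ETH 3 h but not at ETH 24 h had a median L of 0.16 at MJ 24 h, with 1 gene at 1 or more. Another 154 genes that were high at 3 h after both hormones had a median of 0.25, with 22 genes at 1 or more. These sets were also chosen from the 0 h libraries and are given as a description.

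**Figure D4:**
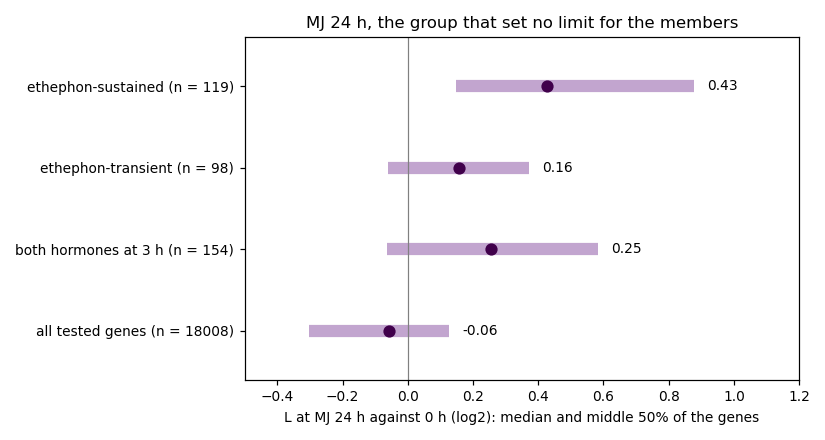
L at MJ 24 h against 0 h for the ethephon-sustained genes, for genes high after ETH at 3 h only, for genes high at 3 h after both hormones and for all tested genes. Dots are medians and bars hold the middle 50% of the genes. The median of the ethephon-sustained genes (0.43) is the highest of the 4.

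The members at the upper end of that comparison were low in counts. CRO_021003 held 0.686, 0.229 and 0.12 CPM at 0 h and 1.24, 2.36 and 8.68 CPM at MJ 24 h (a log2 difference of 3.60 with SE 1.19 and adjusted p = 0.29, edgeR). CRO_005699 held 0.848, 0.497 and 0.439 CPM at 0 h and 1.58, 3.48 and 7.52 CPM at MJ 24 h (a log2 difference of 2.85 with SE 1.04 and adjusted p = 0.323). In both genes the MJ 24 h libraries lay above the 0 h libraries and replicate 3 was the highest of them. At the lower end, CRO_009041 held 0.404, 0.306 and 0.0399 CPM at 0 h and 0.0344, 0.0683 and 0.0362 CPM at MJ 24 h (adjusted p = 0.419), beside 2.51 to 15.7 CPM in its ETH libraries. CRO_013307 was at 0 in 2 of the 3 MJ 24 h libraries.

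Library by library, the median log2 ratio of the members to the 0 h mean was 0.05, 0.37 and 0.75 in replicates 1, 2 and 3 of MJ 24 h. In MJ 3 h it was 0.30, 0.51 and -0.09. In ETH 3 h it was 1.88, 1.64 and 1.66, and in ETH 24 h 1.61, 1.57 and 1.54, where the selection required every library to be high. Replicate 3 of 0 h was the lowest of its group in 75 members (60.6% of all tested genes), at a median of -0.23. The leaf markers, nearly all PSAF, summed to 2362 CPM in replicate 3 of MJ 24 h, the lowest of its group. In replicate 3 of 0 h they summed to 5145 CPM, the highest of its group. Replicate 2 of MJ 3 h, the highest of its group for the members, was the lowest of its group for these markers (1081 CPM). The part of this difference between libraries in the results for MJ was not tested. Within a group the members varied more than tested genes did, with a median SD of the log2 level of 0.43 against 0.23 at MJ 24 h, 0.52 against 0.30 at MJ 3 h, 0.36 against 0.23 at 0 h, 0.41 against 0.26 at ETH 3 h and 0.21 against 0.14 at ETH 24 h.

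**Figure D5:**
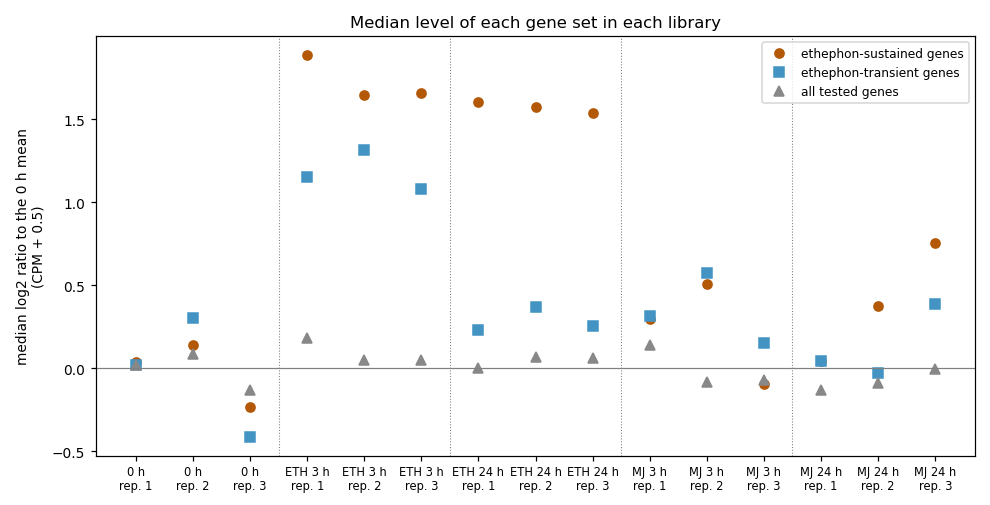
Median log2 ratio to the 0 h mean (0.5 CPM added) in each of the 15 libraries for the ethephon-sustained genes (circles), the genes high after ETH at 3 h only (squares) and all tested genes (triangles). The circles stay between 1.54 and 1.88 in the 6 ETH libraries and spread from 0.05 to 0.75 over the 3 MJ 24 h libraries.

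ETH 24 h was higher than MJ 24 h in 31 members by edgeR's call (0.6% of all tested genes) and in 88 members with no overlap of the libraries (23.8% of all tested genes), with a median difference of 1.02. ETH 24 h was used in the selection, so nothing is read from these counts.

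Among 13 genes of ethylene signalling, CrERF15 was the only member, and 12 could be tested. The list was fixed with earlier results of these data known. CrERF15, CrEIN4, CrEBF2 and CrMKK9 met the conditions of the selection, so their ETH values were chosen and test nothing. At ETH 3 h 7 of the 12 were called higher than 0 h (4.76% of all tested genes). At ETH 24 h 5 were (1.33% of all tested genes). The median differences were 0.95 and 0.57, beside 0.05 and -0.01 over all tested genes, and are given as a description. The receptor gene CrEIN4 stood at 15.3 ± 2.50 CPM (SD, n = 3) at 0 h, 36.8 ± 4.58 at ETH 3 h and 36.6 ± 2.25 at ETH 24 h, and CrCTR1 at 56.5 ± 6.02, 101 ± 5.54 and 95.2 ± 7.21 CPM. CrEBF2, which in Arabidopsis directs EIN3 to breakdown, stood at 362 ± 112, 4292 ± 156 and 4330 ± 304 CPM, and the kinase gene CrMKK9 at 111 ± 32.1, 462 ± 21.2 and 385 ± 37.4 CPM. These 4 and RAP2.12 were called at both times. CrEIN4, CrEBF2 and CrMKK9 met the conditions of the members and were set aside by name.

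CrERF13 was called higher at ETH 3 h only and fell by 1.52 on the log2 scale from ETH 3 h to ETH 24 h (104 ± 52.8, 364 ± 52.3 and 124 ± 5.65 CPM at 0 h, ETH 3 h and ETH 24 h), whereas CrERF15 was called higher at 3 h, with its ETH 24 h difference from 0 h of 2.31 not called. CrETR1, both EIN2 genes, CrEIN3 and EER4 were not called at either time, and CrEIL1 (CRO_031898), another factor of the EIN3 family, had group means of 0 to 0.106 CPM and was too low to test. After MJ, RAP2.12 was called higher at 3 h, and the median difference of the 12 from 0 h was 0.18 at 3 h and 0.17 at 24 h.

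The study's network tables hold 34 transcription factors in their green module and 17 in their pink module. They were chosen by the study on these same libraries, so their direction is not independent evidence. The 5 members named as transcription factors (CrWRKY4, CrbHLH128, the bHLH gene CRO_015412, CrERF15 and RAV1) were all in the green module. Of its 34 genes, 19 were called higher than 0 h at ETH 3 h (4.76% of all tested genes). At ETH 24 h 11 were (1.33% of all tested genes). The median differences of the 34 were 1.11 and 0.68. Over the 17 pink genes the medians were 0.18 and 0.21.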

How the data were processed

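The authors used HISAT2 for alignment (the submitters' processing notes give version 2.0.4), counted reads per gene with HTSeq and deposited raw counts for 33829 genes in 15 libraries. The methods name an NCBI assembly and a Dryad data set as the C. roseus genome without saying which gave these counts, and the HTSeq version and strand setting are not stated. The labels' extraction text names a tissue of an animal, which was taken as an error since the tissue label is leaf. Totals were 23710688 to 31168281 counts, no 2 libraries were identical, and 0 rows named no gene. Groups came from the sample titles.

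CPM and L were computed from library totals. Tests used edgeR 4.0.16 in R 4.3.3 (filterByExpr, 18008 genes kept, TMM factors 0.888 to 1.14, quasi-likelihood fit of 5 group means, common biological coefficient of variation 0.342), with Benjamini-Hochberg adjustment over all 18008 genes. SE is the log2 fold change divided by the root of F. The code was tested on simulated data. Alternatives used DESeq2 1.42.0 and limma 3.58.1 (voom with quality weights), other scalings, filters and folds, a replicate block, only the compared groups, and libraries left out. Python 3.11.15 and matplotlib 3.10.9 were used for summaries and plots.

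The members, lists and comparisons were chosen with earlier results of these data known. Named are all members with a name in the tables of the study, the ethylene list, and of members without a name the 2 highest in ETH, the 2 with the largest L at ETH 24 h, the 2 largest called rises and falls from ETH 3 h to 24 h, the 2 highest and 2 lowest at MJ 24 h against 0 h, and those next to a threshold. CRO_002020, CRO_009836, CRO_015411, CRO_024749 and CRO_031164 were added after their values were seen. 0 of the identifiers matched a RefSeq table of 37298 genes, so no sequences are shown.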

Additional observations from a re-analysis of the deposited data

Results flagged for a closer look

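The change from 3 h to 24 h was called different between the hormones for 4 members (change after ETH minus change after MJ, edgeR, log2 scale). Of the groups in this contrast, ETH 3 h, ETH 24 h and MJ 3 h had set which genes are members, and the share of members called was near that of all tested genes. CRO_009836 had a difference of -1.88 (adjusted p = 0.00098), since all its ETH 24 h libraries lay below those of ETH 3 h and all its MJ 24 h libraries above those of MJ 3 h. CRO_002020 showed the same arrangement of its libraries at -0.98 (adjusted p = 0.0373), with 28.8, 31.5 and 29.9 CPM at ETH 3 h, 21.5, 20.1 and 21.1 CPM at ETH 24 h, 8.32, 10.6 and 8.66 CPM at MJ 3 h and 12.3, 11.3 and 13.9 CPM at MJ 24 h. Neither single change of CRO_002020 was called. The bHLH gene CRO_015412 had a difference of -0.82 (adjusted p = 0.0414) and CRO_026893 one of 1.47 (adjusted p = 0.0455). Over the 22 alternatives CRO_009836 was called in 22, CRO_002020 in 12, CRO_015412 in 11 and CRO_026893 in 7.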

How the results depend on the processing

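The number of ethephon-sustained genes was 104 to 153 under another pseudocount, scaling, floor or no condition on single libraries, 319 with an L of at least log2(1.5) under ETH, 52 with 1.5, and 113 to 161 with 1 library left out. ETH 24 h against ETH 3 h gave 2 higher and 3 lower members. It gave 8 and 12 with limma voom, 6 lower with DESeq2, 1 higher with no filter on low counts, 1 higher at a fold above 2, 4 higher without replicate 1 of both 3 h groups, and 0 to 1 higher and 0 to 2 lower with 1 library left out. MJ 24 h against MJ 3 h gave 9 higher and 5 lower. It gave 19 and 8 with DESeq2, 3 lower with limma voom, 3 and 1 with only the compared groups, 3 lower at a fold above 2, 9 lower without those replicates, and 5 to 29 and 2 to 8 with 1 library left out. MJ 24 h against 0 h gave 0, but 14 higher with DESeq2, 20 with limma voom, 1 with library totals, 5 without those replicates and 0 with 1 library left out. The difference between the time changes gave 1 higher and 3 lower. It gave 3 and 9 with DESeq2, 4 and 6 with limma voom, 0 higher with DESeq2 size factors, with no filter and with only the compared groups, 1 lower with library totals and at a fold above 2, 3 and 6 without those replicates, and 0 to 3 and 1 to 7 with 1 library left out. The calls over all tested genes moved with the method as well. ETH 24 h against ETH 3 h gave 321 higher and 331 lower with edgeR, 634 and 735 with DESeq2, and 1036 and 1182 with limma voom. MJ 24 h against MJ 3 h gave 1620 and 1330, then 2018 and 1806, then 1553 and 1477 in that order. MJ 24 h against 0 h gave 3, 120 and 475 higher, and 9 higher with library totals. The difference between the changes gave 322 and 273, then 609 and 714, then 591 and 575. With only the compared groups the comparisons gave, in the same order, 282 and 276, 564 and 579, 0 and 1, and 239 and 208. Without replicate 1 of both 3 h groups they gave 560 and 666, 1701 and 1520, 55 and 36, and 485 and 428. With no filter the first gave 261 and 274 and the last 279 and 231. The last gave 315 and 286 with DESeq2 size factors and 321 and 280 with library totals. At a fold above 2 no counts over all tested genes are given here. The cause was not tested.

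The replicate numbers did not pair the libraries (30 correlations of deviations, -0.64 to 0.759, 15 above 0.1). In none of the comparisons made here were all same-numbered libraries of the compared groups above 0.1. With the replicate block, 2 members were higher and 2 lower at ETH 24 h against ETH 3 h (270 and 262 of all tested genes). At MJ 24 h against MJ 3 h 9 and 6 were (1613 and 1251 of all tested genes). At MJ 24 h against 0 h 0 and 0 were (0 and 0 of all tested genes). In the difference between the changes 1 and 3 were (272 and 217 of all tested genes). CRO_029584 at ETH 24 h against ETH 3 h, and CRO_002020 and CRO_026893 in the difference between the changes, were no longer called with the block, and another member took the place of each of the latter.

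The alternatives were followed gene by gene only for some members. These were the members with a name, those without a name picked by rank, and CRO_002020, CRO_009836, CRO_015411 and CRO_024749. Among these, values that were not called changed sign for 5 members without a name. With limma voom, CRO_009041 turned to 0.022 at ETH 24 h against ETH 3 h and to 0.60 at MJ 24 h against MJ 3 h, CRO_013307 to 1.58 in the first, and CRO_026893 to 0.26 at MJ 24 h against 0 h. Without replicate 1 of both 3 h groups, CRO_009041 turned to 0.24 and CRO_013307 to 1.49 in the first. With 1 library left out, ETH 24 h against ETH 3 h ran from -0.99 to 0.24 for CRO_009041 and from -3.07 to 1.49 for CRO_013307, MJ 24 h against MJ 3 h from -0.45 to 0.63 for CRO_003531, -1.27 to 0.35 for CRO_009041 and -0.44 to 0.17 for CRO_011550, and MJ 24 h against 0 h from -0.19 to 0.21 for CRO_026893. Low counts limit CRO_003531, CRO_009041 and CRO_013307, each near 0 CPM outside ETH.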
